A study of Mus musculus with 6 samples.

Results

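The transcripts described here are those of 10 genes of the bone morphogenetic protein (BMP) axis: the ligands Bmp2 and Bmp6, the receptor genes Bmpr2 and Acvrl1, the co-receptor gene Eng, the inhibitory SMAD genes Smad6 and Smad7, and the Id genes Id1, Id2 and Id3. They were found by symbol in a table of read counts with 22905 genes, and all 10 were present and passed the filter on low counts. The genes were chosen by their role and with the DOX to PBS log2 fold changes of these same counts known, so their differences between the groups are given as a description, and no p-value is given for them.

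RNA-seq was done on cells labelled as primary hepatic stellate cells, pericytes of the liver sinusoid that keep vitamin A and turn into matrix-producing myofibroblasts after injury. All 6 libraries came from mice of the genotype BucheKI/KI-Hep, and all carry the label of CCl4 (carbon tetrachloride) treatment, a hepatotoxin used to model fibrosis. The sample titles put 3 libraries in a group named PBS and 3 in a group named DOX, and per the series the enzyme butyrylcholinesterase was over-expressed, with hepatocytes as its source. The promoter that drives the introduced gene, the age of the animals and whether libraries came from separate or pooled animals are not given by the labels, so the spread between replicates may be technical. Neither DOX without the introduced gene nor animals without CCl4 were analysed here, so DOX and the introduced gene cannot be told apart. Values of single libraries are given in the order of replicates 1, 2 and 3 of each group. Bche, the targeted gene, had 8 to 26 counts in PBS and 582 to 3639 in DOX, and library totals were between 36220282 and 37707364 counts.

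BMP ligands bind pairs of type I and type II receptor kinases, which phosphorylate Smad1, Smad5 and Smad9, and these enter the nucleus with Smad4. Among the genes they switch on are the Id genes, whose products hold back basic helix-loop-helix transcription factors, and Smad6 and Smad7, whose products block the pathway in return. In the liver Bmp2 and Bmp6 come largely from sinusoidal endothelial cells and drive hepcidin in hepatocytes, while Acvrl1 and Eng form an endothelial receptor for Bmp10 and Gdf2.

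The labelled cell type was checked against marker lists. Transcripts of 6 other cell types were present, and the endothelial and macrophage sums were above the stellate sum in every library. The lists hold different genes, so these sums are not shares of cells, and the label of stellate cells is not borne out by them alone. Summed over 15 stellate markers, the level was 649 to 1457 CPM (counts scaled to a common library size by TMM) in PBS and 798 to 1256 CPM in DOX, led by Dcn and Ecm1, and Gfap had no count in at least 1 library, as had Ly6g, Retnlg, Mpo and Elane of the neutrophil list. The 18 endothelial markers, led by Cdh5 and Pecam1, summed to 6637 to 8243 CPM in PBS and 5869 to 7114 CPM in DOX, ranges that overlap. Gene by gene, 14 of them had negative and 4 positive log2 fold changes, beside 48.6% positive among all genes tested. For the 15 macrophage markers, led by Mpeg1 and Lyz2, the sum was 4518 to 6887 CPM in PBS and 8268 to 15077 CPM in DOX, without overlap. Hepatocyte markers, led by Alb and Ahsg, summed to 143 to 358 CPM in PBS and 259 to 3233 CPM in DOX, with DOX replicate 3 the highest. The lymphocyte sum, led by Cd4 and Gzma, was 3.66 to 9.19 CPM in PBS and 14.8 to 29.8 CPM in DOX. The neutrophil sum, led by Csf3r and S100a8, was 26.7 to 56.4 and 106 to 152 CPM. The cholangiocyte sum, led by Krt19 and Krt7, was 16.2 to 59.1 and 66.2 to 104 CPM. These sums were higher in every DOX library than in every PBS library. Single genes did not all follow, as the groups of Cd3e, Cd79a, Cd79b, Sox9 and Cftr overlapped. Most of the neutrophil sum was Csf3r (mean 39.3 CPM in PBS and 115 CPM in DOX). Of the tested markers, edgeR called Tek and Ptprb lower among 18 endothelial genes and C1qb, C1qc and Cd14 higher among 15 macrophage genes, beside 2.04% of all genes tested called lower and 4.38% higher. DESeq2 called 6 endothelial genes lower and 1 higher and 10 macrophage and 7 lymphocyte genes higher. Over all genes DESeq2 called 1677 higher and 1015 lower. EdgeR also called 3 of 11 tested lymphocyte, 4 of 4 tested neutrophil and 1 of 5 cholangiocyte genes higher. The lymphocyte list holds 14 genes and the neutrophil list 7, and the others were too low to be tested. Mpo (1, 0 and 0 counts in PBS, 46, 17 and 48 in DOX) passed the low-count filter through its DOX libraries. So did Gzma (14, 5 and 1 against 156, 66 and 106) and Nkg7 (11, 10 and 6 against 89, 34 and 76). Nothing is read from their calls. No gene was called by edgeR among 14 stellate and 12 hepatocyte genes. Of these, 0 and 11 had an unadjusted edgeR p under 0.05, beside 4138 of all 14439 genes tested. DESeq2 called 0 and 8 of them and limma-voom 0 and 0. In such bulk libraries fewer cells of a type and less RNA per cell cannot be told apart, and the part of these marker differences in the results below was not tested.

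**Figure D1:**
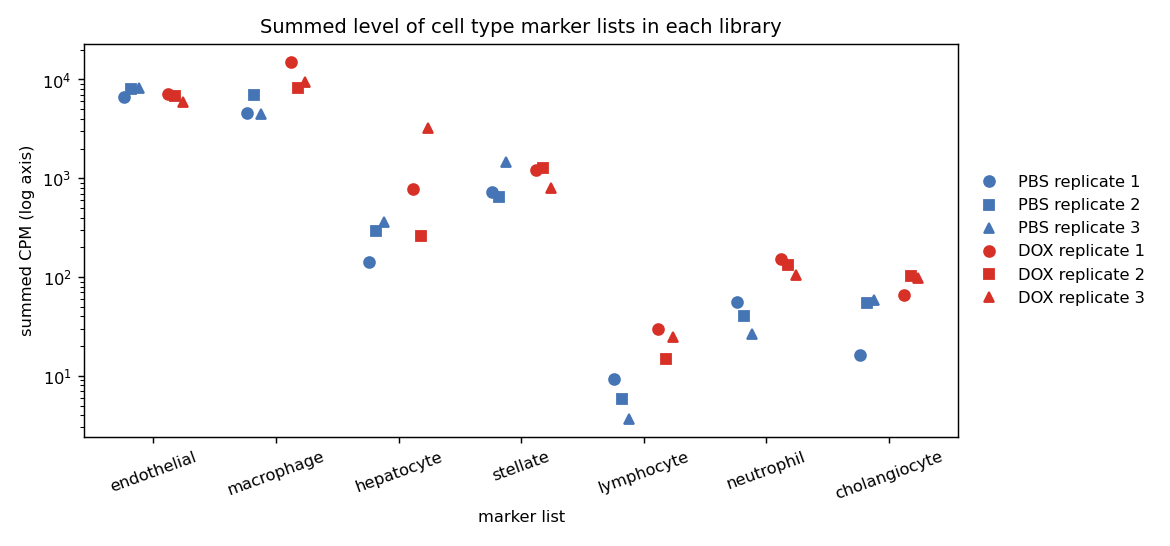
Summed CPM (log axis) of 7 cell type marker lists in each of the 3 PBS and 3 DOX libraries, 1 symbol per library. The macrophage sum of every DOX library (at least 8268 CPM) lies above that of every PBS library (at most 6887 CPM), whereas the endothelial sums overlap. Of the 18 endothelial genes 14 had negative and 4 positive log2 fold changes.

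Per length of transcript, Eng, Id2, Id3 and Bmp6 were the most abundant of the 10 genes, and Smad7 was the least abundant in both groups. The mean level in PBS was 220 ± 9.60 FPKM (counts scaled by gene length and library total) for Eng, 143 ± 17.2 for Id2, 142 ± 15.8 for Id3 and 100 ± 11.4 for Bmp6 (SD, n = 3). It was 29.6 ± 4.15 FPKM for Bmpr2, 21.3 ± 1.53 for Bmp2, 21.0 ± 2.43 for Smad6, 19.5 ± 4.77 for Id1, 16.0 ± 2.98 for Acvrl1 and 12.6 ± 1.19 for Smad7. Id2 and Id3 overlapped between PBS libraries, as did each neighbouring pair from Bmp2 down to Smad7, so their order is within the spread. In DOX, Id1 took position 5 at 33.4 ± 5.59 FPKM, in place of position 8, and Smad6 took position 9 at 11.7 ± 1.88 FPKM.

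Both ligand genes had lower means in DOX. Positions are those of GRCm38.p6, and all 10 genes are protein-coding. Bmp6 (chr13:38345716-38500314) stood at 372, 365 and 296 CPM in PBS and at 206, 285 and 233 CPM in DOX. Every DOX library was below every PBS library, and the log2 fold change was -0.51 (SE 0.15). Bmp2 (chr2:133552159-133562896) stood at 80.3, 67.7 and 70.8 CPM in PBS and at 62.9, 53.1 and 71.9 CPM in DOX. The groups of Bmp2 overlapped through DOX replicate 3, with a log2 fold change of -0.22 (SE 0.13). Bmp6 shares exons with Txndc5 on the opposite strand, whose log2 fold change was -0.11 (SE 0.12), and since the labels do not say whether strand was used in counting, reads of the pair cannot be told apart.

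The receptor and co-receptor genes had log2 fold changes of both signs. Eng (chr2:32646595-32682669), which encodes endoglin, had 739, 742 and 779 CPM in PBS against 494, 606 and 536 CPM in DOX. Its PBS libraries were close together (coefficient of variation 2.96%), all DOX libraries were below them, and the log2 fold change was -0.47 (SE 0.11). Acvrl1 (chr15:101128522-101145336), which encodes the type I receptor ALK1, had 57.4, 68.9 and 47.7 CPM in PBS and 82.7, 84.7 and 63.4 CPM in DOX, a log2 fold change of 0.41 (SE 0.17). Here DOX replicate 3 lay below PBS replicate 2, so the groups overlapped. Bmpr2 (chr1:59764279-59878081), the type II receptor gene, had 287, 355 and 360 CPM in PBS and 362, 417 and 275 CPM in DOX, with the lowest and the highest value both in DOX, and a log2 fold change of 0.07 (SE 0.17) that was -0.06 by library totals alone. Exons of Eng overlap Fpgs (log2 fold change -0.53, SE 0.26) on the opposite strand, and those of Acvrl1 the antisense gene Gm16031, which was not analysed here.

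Both inhibitory SMAD genes were lower in every DOX library than in any PBS library. Smad6 (chr9:63953076-64022085), whose product preferentially blocks BMP receptor signalling, stood at 54.2, 60.3 and 66.2 CPM in PBS and at 33.0, 35.5 and 41.1 CPM in DOX. The means were 60.2 ± 5.98 and 36.5 ± 4.12 CPM (SD, n = 3 each), 1.65-fold lower in DOX, with a log2 fold change of -0.72 (SE 0.12). Smad7, whose product blocks both BMP and TGF-beta receptors, stood at 52.9, 49.5 and 58.8 CPM in PBS and at 22.4, 29.1 and 37.9 CPM in DOX. This was 1.80-fold lower (log2 fold change -0.85, SE 0.19), and the DOX libraries varied more (coefficient of variation 26.0%) than those of PBS (8.80%). Of all 10 genes Smad6 and Smad7 were the second closest pair in pattern over the 6 libraries, with a root mean square distance of 0.16 on the centred log2 scale, after Bmp6 and Eng at 0.14.

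The promoter of Smad6 is shown because it carries the palindrome of the SMAD element near a start of the gene. Promoters are the 250 bases before to 50 bases after a gene's start in RefSeq for GRCm38.p6, and 6 of the 10 genes matched (Bmp6, Bmpr2, Eng, Smad6, Id2 and Id3), with Bmp2, Acvrl1, Smad7 and Id1 not among them. Capitals mark GGCGCC (a GC-rich SMAD element), CAGAC (a SMAD element) and GTCTAGAC (the palindrome), each searched on both strands, with the palindrome added after the sequences had been seen. The Smad6 promoter (chr9:64022010-64022309, minus strand) holds GTCTAGAC once, beginning at base -4 relative to the start used by the promoter table, and no GGCGCC or CAGAC. That start, 64022059, lies 26 bases inside the outer bound of the gene given above, so the palindrome is within the gene by that bound, while the starts of Id2 and Id3 coincide with their bounds.
Smad6: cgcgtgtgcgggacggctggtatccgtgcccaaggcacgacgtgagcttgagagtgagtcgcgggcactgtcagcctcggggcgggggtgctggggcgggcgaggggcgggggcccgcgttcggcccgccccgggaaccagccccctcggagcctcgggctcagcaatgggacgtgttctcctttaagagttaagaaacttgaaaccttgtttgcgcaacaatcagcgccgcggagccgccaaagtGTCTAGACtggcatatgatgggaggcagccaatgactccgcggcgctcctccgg
Of 32851 promoters of this length, 0.213% hold GTCTAGAC, 11.9% GGCGCC and 49.6% CAGAC, and none of the other 5 matched promoters holds the palindrome. The E-box CANNTG was also searched, and 72.3% of promoters hold it, among them those of Smad6, Id2, Bmp6 and Eng. A match describes the letters in this window and is no evidence that a factor binds there.

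All 3 Id genes, whose products bind basic helix-loop-helix factors, had positive log2 fold changes, and the groups were apart for Id1 alone. Id1 (chr2:152736251-152737410) stood at 16.5, 22.0 and 26.4 CPM in PBS and at 41.2, 34.6 and 45.2 CPM in DOX. All DOX libraries were above all PBS libraries, 1.87-fold on average (log2 fold change 0.90, SE 0.19). Id2 (chr12:25093799-25096092) stood at 163, 196 and 163 CPM in PBS and at 175, 167 and 191 CPM in DOX, within the same range. Its log2 fold change was 0.03 (SE 0.11) and became -0.09 by library totals alone. Id3 (chr4:136143822-136145392) stood at 122, 121 and 144 CPM in PBS and at 147, 138 and 147 CPM in DOX, where PBS replicate 3 lay above DOX replicate 2, and the log2 fold change was 0.16 (SE 0.10).

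The promoters of Id2 and Id3, genes whose groups overlapped, are printed beside that of Smad6. That of Id2 (chr12:25096043-25096342, minus strand) holds GGCGCC once, at base -231, and that of Id3 (chr4:136143572-136143871, plus strand) holds CAGAC at base -167 and, as its reverse complement, at base -68. CAGAC is also in the promoters of Bmp6 (base -119) and Eng (bases -214 and -127), whose groups were apart. GGCGCC is also in that of Bmpr2 (base -105), whose groups overlapped. No link between motifs and group differences is read from these promoters.
Id2: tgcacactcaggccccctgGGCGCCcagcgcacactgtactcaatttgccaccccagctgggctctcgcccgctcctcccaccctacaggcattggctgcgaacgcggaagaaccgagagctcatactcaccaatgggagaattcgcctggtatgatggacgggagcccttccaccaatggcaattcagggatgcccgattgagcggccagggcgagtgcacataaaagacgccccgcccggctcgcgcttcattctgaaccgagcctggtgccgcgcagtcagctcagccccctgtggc
Id3: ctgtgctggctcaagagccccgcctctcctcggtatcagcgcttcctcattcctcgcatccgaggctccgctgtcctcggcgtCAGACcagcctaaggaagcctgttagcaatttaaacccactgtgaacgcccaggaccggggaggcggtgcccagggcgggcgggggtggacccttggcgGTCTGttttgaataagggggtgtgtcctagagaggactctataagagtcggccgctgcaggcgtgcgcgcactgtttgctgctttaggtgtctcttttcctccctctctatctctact
G and C make up 66.3% of the bases of the Smad6 promoter and 63.3% of those of Id2.

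**Figure D2:**
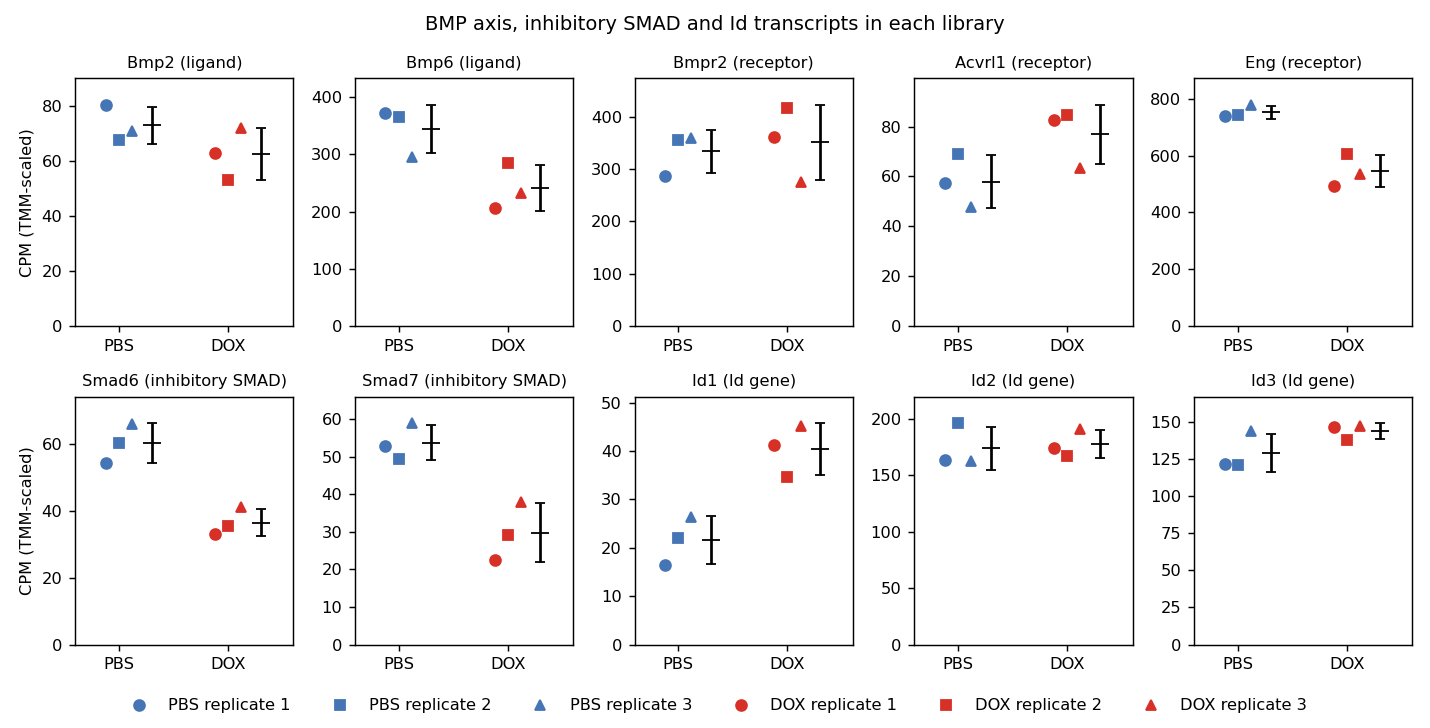
Level of each of the 10 genes in CPM in the 3 PBS and 3 DOX libraries, with 1 symbol per replicate number and the mean ± SD of 3 libraries beside them. Smad6, Smad7, Eng and Bmp6 are lower in every DOX library, Id1 is higher in every DOX library, and the groups of the other 5 genes overlap.

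Over the 10 genes, 5 log2 fold changes were positive and 5 negative, with a median of -0.10 beside -0.01 over all 14439 genes tested. The groups did not overlap for 5 genes (4 lower and 1 higher in DOX), beside 34.6% of all genes tested (17.7% lower and 16.9% higher). At an edgeR adjusted p under 0.05 over all genes, 3 of the 10 genes were counted as called, Smad6 and Smad7 as lower and Id1 as higher, beside 6.41% of all genes tested (2.04% called lower and 4.38% higher). Over all genes 632 were called higher and 294 lower, and by library totals alone 611 and 730. Nothing is read from these counts, since the genes were chosen with them in view. None of the 10 was called without PBS replicate 2, PBS replicate 3, DOX replicate 1 or DOX replicate 2. Those fits called 0, 0, 85 and 438 of all genes, so without PBS replicate 2 or 3 no gene at all was called. In these fits 5 or 6 of the 10 had an unadjusted edgeR p under 0.05, beside 3058 to 3761 of all genes. Smad6 alone was called without PBS replicate 1, beside 781 of all genes, and Smad6 and Smad7 without DOX replicate 3, beside 1090.

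With TMM scaling both inhibitory SMAD genes had negative and all 3 Id genes positive log2 fold changes. A direction opposite to that of the SMADs rests on Id1, as the groups of Id2 (0.03, SE 0.11) and Id3 (0.16, SE 0.10) overlapped. Id2 kept the positive sign in 10 of 16 alternative settings, and with the macrophage sum as library size Id1, Id2 and Id3 were at -0.10, -0.94 and -0.85, the same sign as the SMADs. Within 1 library the ratio of the counts of an Id gene to those of an inhibitory SMAD is free of any scaling. For each Smad6 count there were 0.304, 0.366 and 0.398 counts of Id1 in PBS and 1.25, 0.975 and 1.10 in DOX. The ratio was 3.12-fold higher in DOX, from a mean log2 ratio of -1.50 ± 0.20 to 0.14 ± 0.18 (SD, n = 3 each). For each Smad7 count there were 0.312, 0.445 and 0.448 counts of Id1 in PBS and 1.84, 1.19 and 1.19 in DOX, 3.47-fold higher. The Id2 to Smad6 ratio was 1.69-fold and the Id3 to Smad6 ratio 1.84-fold higher in DOX, and the ratios to Smad7 were 1.88-fold higher for Id2 and 2.06-fold for Id3. All 6 ratios were higher in every DOX library than in every PBS library. They share Smad6 and Smad7, which were each lower in every DOX library, so the 6 are not independent and are given as a description. The part of the cell mixture in these ratios was not tested. With any 1 library left out, the log2 difference of the Id1 to Smad6 ratio stayed between 1.53 and 1.73, and that of the Id2 to Smad6 ratio, the smallest, between 0.64 and 0.84.

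**Figure D3:**
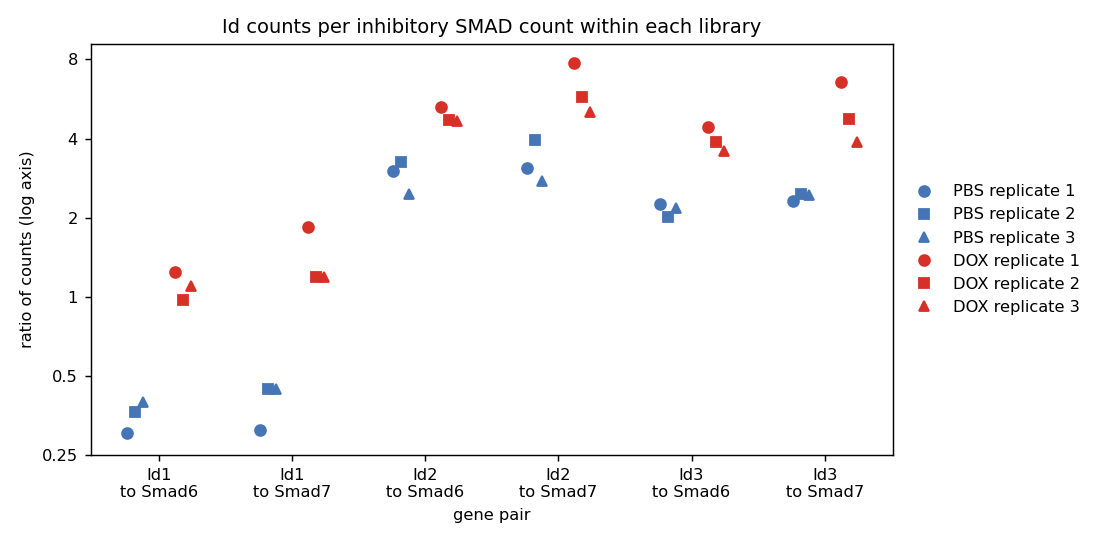
Counts of Id1, Id2 and Id3 per count of Smad6 or Smad7 within each library (log axis), with 1 symbol per replicate of PBS and DOX. The PBS ratios of Id1 to Smad6 lie between 0.304 and 0.398 and those of DOX between 0.975 and 1.25, and the groups are apart for all 6 pairs.

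Because macrophage transcripts were higher in DOX, the 10 genes were also set against the summed counts of the marker lists. On the scale of the endothelial sum the log2 fold change was -0.50 for Smad6, -0.62 for Smad7, -0.26 for Eng and 1.14 for Id1. Per 1000 CPM of endothelial markers, Smad6 stood at 8.17, 7.49 and 8.03 CPM in PBS and at 4.64, 5.17 and 6.999 CPM in DOX, still without overlap, while Smad7 overlapped through DOX replicate 3 (6.46 CPM against 6.15 CPM in PBS replicate 2). On the endothelial scale edgeR called Id1, and Smad6 and Smad7 were not called. On the scale of the macrophage sum it called all of the 10 genes but Acvrl1, Id1 and Id3, each as lower. The share of all genes called on these scales is not given here, so nothing is read from these calls. Bmp6 overlapped on the endothelial scale as well, and Acvrl1, Bmpr2 and Id3 were higher per endothelial sum in every DOX library. On the scale of the macrophage sum all 10 log2 fold changes were negative. That of Id1 was the closest to 0, at -0.10, with 3.57, 3.20 and 5.83 CPM per 1000 CPM of macrophage markers in PBS and 2.74, 4.19 and 4.82 in DOX, where the groups overlap. By library totals alone, which shift the median of all genes to -0.14, the log2 fold changes were -0.84 for Smad6, -0.97 for Smad7 and 0.77 for Id1.

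**Figure D4:**
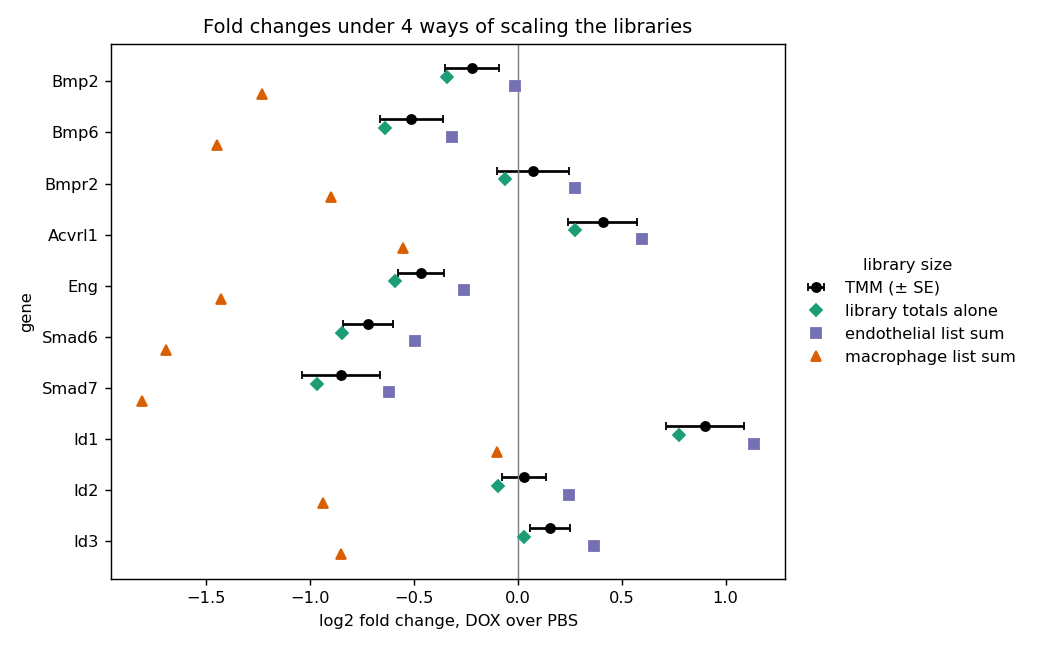
Log2 fold change of DOX over PBS for each of the 10 genes with TMM-scaled library sizes (black, ± SE), library totals alone, and the summed counts of the endothelial or the macrophage list as library size. Smad6 lies left of 0 under all 4 scalings (from -1.69 to -0.50), and Id1 lies right of 0 under 3 of them and at -0.10 on the macrophage scale.

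In the wider pathway edgeR calls were few and near the shares of all genes tested. A list of 69 other BMP pathway genes held 54 that were tested. Of these Twsg1, Gja4 and Lrg1 were called higher and 0 lower by edgeR, beside 4.38% and 2.04% of all genes tested. At an unadjusted edgeR p under 0.05, 4 were higher and 9 lower, beside 4138 of all 14439 genes tested in either direction. DESeq2 called 4 higher and 5 lower, beside 1677 and 1015 of all genes. By limma-voom 2 were called higher and 1 lower, beside 581 and 281 of all genes. The split turned with scaling, as by library totals alone 2 were called higher and 5 lower, beside 611 and 730 of all genes. The median log2 fold change of the 54 genes was -0.11, and the groups did not overlap for 7 that were higher and 9 that were lower in DOX, beside 16.9% and 17.7% of all genes tested.

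Twsg1, whose product binds BMPs outside the cell, was at 47.2, 47.9 and 47.0 CPM in PBS and at 63.8, 68.1 and 57.4 CPM in DOX. It rose by 0.41 on the log2 scale (SE 0.09, adjusted p = 0.0441 by edgeR), with no overlap of the groups. Lrg1, which encodes a secreted glycoprotein that modulates endothelial TGF-beta signalling and is also made by hepatocytes in the acute phase, was at 6.17, 5.88 and 7.09 CPM in PBS and at 14.8, 13.7 and 24.9 CPM in DOX, a log2 difference of 1.48 (SE 0.25, adjusted p = 0.0288 by edgeR). The hepatocyte marker sum was 143, 289 and 358 CPM in PBS and 773, 259 and 3233 CPM in DOX, and its part in the Lrg1 values was not tested. Gja4, which encodes the arterial gap junction protein connexin 37, was at 55.4, 31.5 and 37.6 CPM in PBS and at 201, 204 and 66.6 CPM in DOX, a log2 difference of 1.92 (SE 0.44, adjusted p = 0.0489 by edgeR). Its DOX replicate 3 stood closest to PBS. Twsg1 and Gja4 were called with 1 library left out only without DOX replicate 3 (edgeR adjusted p of 0.0304 and 0.0142), and Lrg1 only without DOX replicate 2 or 3 (0.0404 and 0.0206). Over all genes, 1090 were called without DOX replicate 3 and 438 without DOX replicate 2. The number was 781 without PBS replicate 1, 85 without DOX replicate 1 and 0 without PBS replicate 2 or 3. Over the 16 alternative settings Twsg1 and Gja4 kept the call in 6 each and Lrg1 in 12.

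No ligand gene outside the 10 passed the edgeR test. Bmp10, a ligand of Acvrl1 and the most abundant of them per length, was at 61.9, 23.1 and 86.0 CPM in PBS and at 15.9, 23.9 and 19.9 CPM in DOX. PBS replicate 2 lay within the range of DOX, and the log2 fold change of -1.52 (SE 0.44) had an edgeR adjusted p of 0.0810 and a DESeq2 adjusted p of 0.00429. Without PBS replicate 2 it was -1.90, and without PBS replicate 3 it was -1.10. Bmp5 had log2 fold changes of opposite sign with single libraries left out (from -0.49 to 0.45), and Gdf2 was at 0.41 (SE 0.47).

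No other receptor, signalling SMAD or cofactor gene passed the edgeR test. In the roles other than antagonist and endothelial ALK1 target, 33 genes were tested and edgeR called 0. At an unadjusted edgeR p under 0.05, 1 was higher and 6 lower, beside 4138 of all 14439 genes tested. DESeq2 called 1 higher and 4 lower, beside 1677 and 1015 of all genes, and limma-voom called 0. The log2 fold change was -0.27 (SE 0.10) for Acvr1 and -0.11 (SE 0.12) for Acvr2a, both receptor genes, and 0.09 (SE 0.12) for Smad1, -0.27 (SE 0.12) for Smad5 and -0.17 (SE 0.09) for Smad4. The co-receptor genes Tgfbr3 and Neo1 were at -0.27 (SE 0.19) and -0.28 (SE 0.15). Smurf1 and Smurf2, ubiquitin ligases that act with the inhibitory SMADs, had log2 fold changes of -0.31 (SE 0.10, adjusted p = 0.101 by edgeR) and -0.37 (SE 0.09, adjusted p = 0.0595 by edgeR), and their groups did not overlap. Fstl1, the most abundant antagonist gene, was at -0.45 (SE 0.22), Tcf12, which encodes a partner of the Id proteins, at -0.30 (SE 0.07, adjusted p = 0.0565 by edgeR), and Id4 at 0.49 (SE 0.33) with 45.2, 71.9 and 83.1 CPM in PBS and 127, 56.6 and 97.3 CPM in DOX. Esm1, an endothelial gene, was at -0.11 (SE 0.17) and the ALK1-responsive gene Hey1 at -0.80 (SE 0.19, adjusted p = 0.0523 by edgeR).

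**Figure D5:**
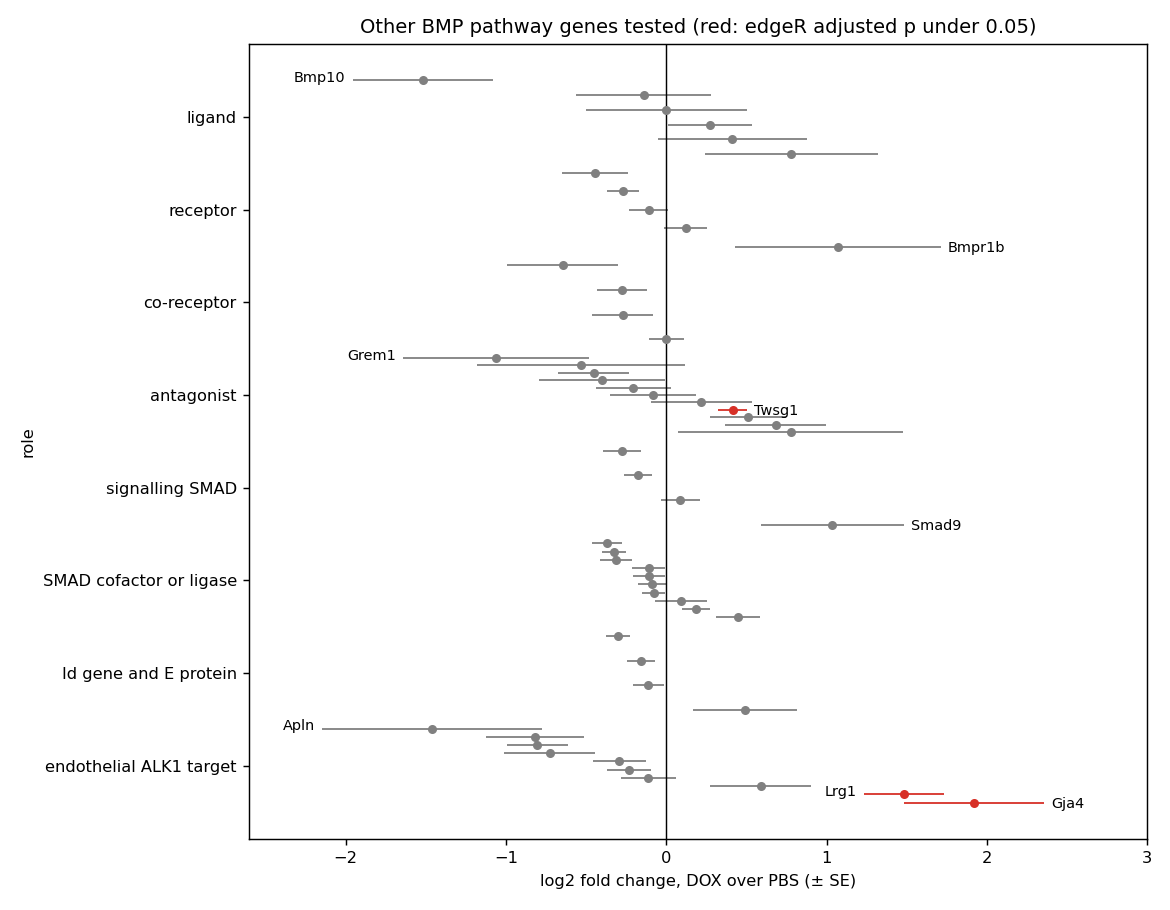
Log2 fold change of DOX over PBS (± SE) of the 54 tested genes of the wider BMP list by role, with genes past an edgeR adjusted p of 0.05 in red. The red genes are Twsg1, Lrg1 and Gja4, all to the right of 0, and Bmp10 lies at -1.52 with a wide error.

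Smad7 is also a target of Smad3, which carries TGF-beta signals and a list of 9 such genes, Smad7 included, was examined. Smad7 apart, edgeR and limma-voom called 0 of 8, and DESeq2 called 3, beside 2692 of all genes. At an unadjusted edgeR p under 0.05, 1 was higher and 2 lower, beside 4138 of all 14439 genes tested. Ccn2, which encodes a matricellular growth factor, was at 787, 294 and 728 CPM in PBS and at 41.9, 58.6 and 235 CPM in DOX. Its log2 difference was -2.43 (SE 0.71, adjusted p = 0.0827 by edgeR), and it was -3.59 without DOX replicate 3 (edgeR adjusted p of 0.0226) and between -2.76 and -2.04 without any other library. All DOX libraries were below all PBS libraries, with PBS replicate 2 and DOX replicate 3 the nearest to each other. Ltbp2, a gene of the extracellular matrix, was at -1.25 (SE 0.30, adjusted p = 0.0530 by edgeR) and Tgfbi, another one, at 0.79 (SE 0.23, adjusted p = 0.0825 by edgeR). Pmepa1, Skil, Tgif1 and Col1a1 had log2 fold changes of 0.02, 0.18, -0.02 and -0.10.

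The genes closest to Smad6 in pattern, by the root mean square distance of centred log2 CPM over the 6 libraries among tested genes of at least 5 CPM, were Ankrd10, Ptprb, Snx9, Plekhg1 and Yeats2, at distances of 0.066 to 0.081. Ptprb is 1 of the 18 endothelial markers and had 224, 275 and 269 CPM in PBS and 145, 150 and 158 CPM in DOX. Closest to Id1 were Ppp1r12b, Cystm1, Slc8a1, Mgst1 and St7, at distances of 0.13 to 0.16. These distances are a description over 6 libraries, with no test.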

How the data were processed

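Per the labels' protocols, an RNeasy kit gave the RNA and the SMARTER mRNA-Seq kit the libraries. The authors deposited raw counts per gene symbol and FPKM values, 1 column per library with no pooling. All 115017 nonzero deposited FPKM values equalled the count per fixed gene length and library total within a relative tolerance of 0.0001. Aligner, counter and strand setting were not given in the sources used here. Per the submitters' processing notes the builds GRCm38, mm10 and hg38 are listed, without what each was for. Groups were taken from the titles. Replicates of a group differed by a chi-square of 38.6 to 82.1 per degree of freedom, more than counting noise, which does not show whether they came from separate animals.

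The counts of all 6 libraries were fitted with edgeR 4.0.16 (R 4.3.3; TMM, filterByExpr with a minimum count of 10 and a total of 15, quasi-likelihood test, group as the only term), which left 14439 genes. P-values are two-sided and adjusted by Benjamini-Hochberg over all of them, with a threshold of 0.05. CPM uses TMM-scaled library sizes, an SE was derived from the F statistic, and 3 counts, the limit that a count of 0 allows, came to 0.0757 to 0.0877 CPM, for counting error only. The code was tested on simulated counts. Alternatives were other scalings and filters, DESeq2 1.42.0, limma 3.58.1 (voom, and log2(FPKM + 1) and log2(FPKM + 0.1)), the replicate number as a block, marker sums as library sizes, and leaving out each library. The 10 genes, the gene lists and the tests were chosen with earlier results of these data known. Genes named besides the 10 were all those called in the wider BMP list, the 2 most abundant per length in each role, the Smad3 targets, the 2 most abundant of each marker list and those without a count in some library, and the 5 nearest patterns, and some genes that this rule names are not reported here. Gdf2, Smad5, Hey1, Txndc5, Fpgs and the called markers were named after their values were seen. Positions and promoters are from RefSeq (GRCm38.p6) and exon overlaps from GENCODE M21.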

Additional observations from a re-analysis of the deposited data

How the results depend on the processing

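The signs of Smad6, Smad7, Id1, Id3, Bmp2, Bmp6, Eng and Acvrl1 were the same in all 16 settings that used counts or FPKM of all genes, between -1.06 and -0.68 for Smad7, -0.84 and -0.65 for Smad6 and 0.73 and 1.06 for Id1, while Bmpr2 kept its sign in 11 and Id2 in 10. With the macrophage sum as library size the log2 fold change became -0.90 for Bmpr2, -0.55 for Acvrl1, -0.10 for Id1, -0.94 for Id2 and -0.85 for Id3, each positive with TMM. The 926 genes called became 2692 with DESeq2 and between 0 and 1090 with 1 library left out (0 without PBS replicate 2 or 3, with 3294 and 3092 at an unadjusted edgeR p under 0.05). Of the 10 genes 3 were called, 5 with DESeq2, and 0 to 2 with 1 library left out. Of the other BMP genes 3 were called, 5 with upper-quartile factors and with a filter of 1 CPM, 7 by library totals alone, 9 with DESeq2, 6 with limma on log2(FPKM + 1) and on log2(FPKM + 0.1), and 0 to 4 with 1 library left out. Over all genes, 988 were called with upper-quartile factors, 984 with the filter of 1 CPM and 1341 by library totals alone. Limma called 825 of all genes on log2(FPKM + 1) and 958 on log2(FPKM + 0.1). With the replicate number as a block, 781 genes, the same number of the 10 genes (3) and 1 of the other BMP genes were called. Deviations of same-numbered libraries correlated across genes at 0.094, -0.11 and 0.22 for replicates 1, 2 and 3. Only the libraries of replicate 3 correlated best with their own number. With 3 libraries per group these values cannot show whether the numbers pair the libraries. The causes of these changes were not tested. With 3 libraries per group, calls rest on a spread that each library sets in part.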
